A study of Mus musculus with 11 samples.

Results

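The anterior tongue of the mouse embryo at E14.5, where E gives the embryonic day, was set against the medial piece of the mandibular arch at E11.5. The comparison was chosen by label alone: the only E14.5 array and the 2 medial E11.5 arrays, 3 of the 11 arrays of a series that sampled the medial and lateral parts of the arch from E9.7. All embryos were of the ICR strain and carried no stated mutation or treatment. Each sample pooled tissue from 40 embryos, and 3 ug of total RNA was labelled for an Affymetrix array. Nothing says that the E11.5 arrays came from separate pools, so the spread between them may be technical. The E14.5 sample has the same region name as the E11.5 samples in its title, but its tissue is given as tongue and its region as the anterior 2 parts of 3. Stage, dissection and any effect of the single E14.5 array therefore differ together and cannot be told apart. With 1 array at E14.5 no test was possible, and every difference below is a description of these arrays.

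The tongue forms from swellings on the floor of the pharynx, mostly of the mandibular arch. Cranial neural crest gives its connective tissue, while its muscle comes from progenitors that migrate in from the occipital somites. These progenitors first express the myogenic factors Myf5 and MyoD, then myogenin, fuse into multinucleated fibres and build sarcomeres, in which thick filaments of myosin slide along thin filaments of actin held at the Z-disc. The surface becomes a stratified epithelium that carries the taste and filiform papillae. At the arch stage, by contrast, the medial mesenchyme is patterned by transcription factors such as Hand2 and Msx1 under signals that include Bmp4.

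Values are log2 signals after quantile normalization over the 11 arrays, and a difference is the E14.5 value minus the mean of both E11.5 values. A gene was called measured where the E14.5 value or the E11.5 mean reached 4.86, the median of all values, and it was counted as higher or lower where E14.5 lay at least 2-fold beyond both E11.5 arrays. A gene dim at one stage enters only through the other, where it had to differ, so the number of such members is given with the main lists, and differences of dim genes understate or blur the true size. Of 12361 measured genes, 1377 (11.1%) were higher at E14.5 and 454 (3.67%) were lower. These shares are the background for each list count below. At 4-fold the counts were 422 (3.41%) and 63 (0.51%). The E11.5 arrays themselves were at least 2-fold apart in 161 genes (1.3%). The median difference over all genes was 0.09. Of the counted genes 75.2% were higher, a share that centring the arrays on their medians raised to 88.9%. In the values as deposited it was 99.6%, and under these scalings the median of all genes moved to 0.41 and 1.76. As deposited, 18 of the named lower genes had positive differences under that shift, Msx1, Shh and Ryr1 among them.

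**Figure D1:**
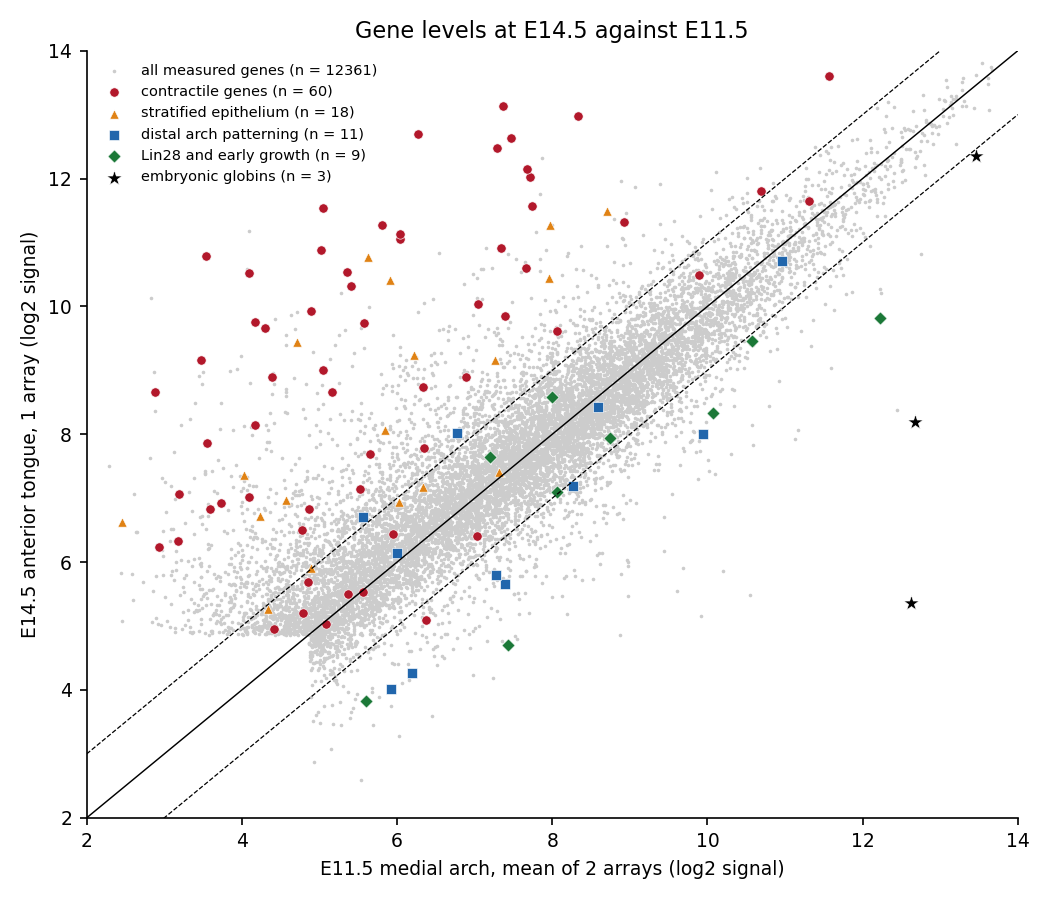
Log2 signal on the E14.5 array (vertical axis) against the mean of both E11.5 arrays (horizontal axis) for 12361 measured genes, with members of 5 gene lists in colour; the solid line marks equal levels and the dashed lines 2-fold. Most contractile genes lie far above the upper line, and the 3 embryonic globins lie on the lower side, with Hbb-bh1 at 5.36 on the E14.5 array.

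Signals of control probe sets set the E14.5 array apart. Messengers added to or present in every sample are probed near both ends, and the gap between the 3′ and the 5′ probe set was 1.22 for beta-actin on the E14.5 array against 0.26 to 0.49 on the other 10. For the spiked-in dap messenger the gap was 3.64 against 0.82 to 1.28. Probe sets of one gene disagreed more often among genes counted lower: of 258 such genes with several bright probe sets, 57 (22.1%) were at least 2-fold lower on all of them and 86 (33.3%) had one of the opposite sign. Among 474 genes counted higher these numbers were 216 (45.6%) and 110 (23.2%). The part of these gaps in the results was not tested. Where probe sets of a gene that reached the level fell on different sides of 2-fold, their lowest and highest differences, or the differing value, are printed beside it, and such a gene has no settled direction or size.

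**Figure D2:**
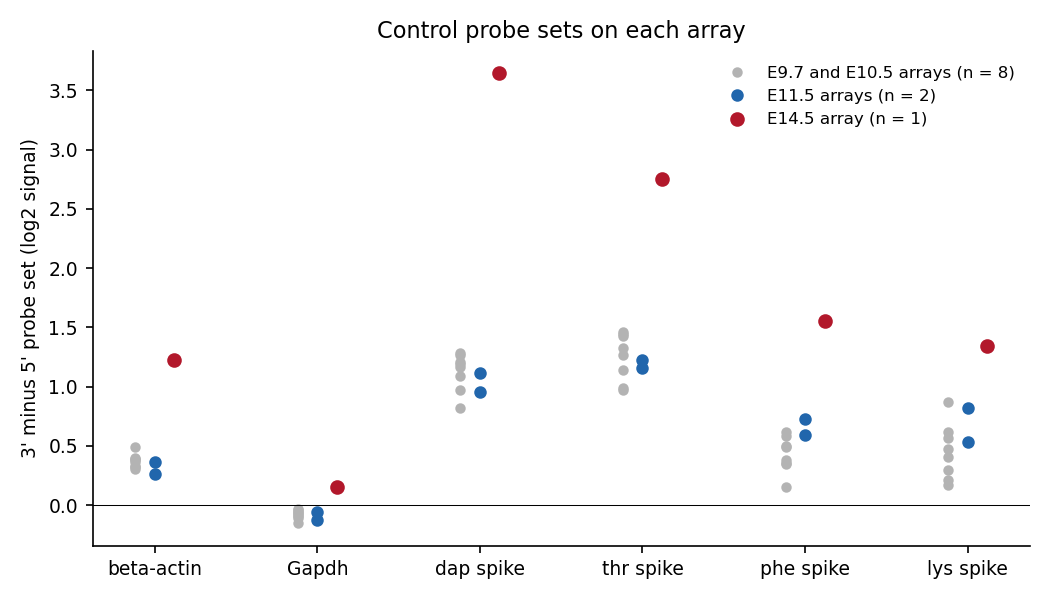
Difference in log2 signal between the 3′ and 5′ probe sets (vertical axis) for 6 control messengers (horizontal axis) on each array, 1 point per array. The E14.5 array (red) is the highest for each messenger, at 3.64 for dap against at most 1.28 on the other arrays.

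Muscle structure accounted for most of the 12 largest positive differences among named genes. Of 60 measured members of the 4 lists of contractile genes, 48 were higher at E14.5 and 1 was lower (11.1% and 3.67% of all measured genes were), with a median difference of 3.41 against 0.09 for all genes; 20 of the 60 had an E11.5 mean under the level. The 12 named genes with the largest excess included 8 of these members, together with Atp1b4, Cav3, Tceal7 and the matrix gene Aspn. In the order E11.5 replicate 1, E11.5 replicate 2 and E14.5, Atp1b4, a muscle protein related to subunits of the sodium pump, read 3.01, 2.64 and 10.13, the widest gap among named genes (7.31). Cav3, the caveolin of muscle membranes, read 4.28, 3.84 and 10.58, and Tceal7, of the transcription elongation factor A-like family, read 3.76, 4.44 and 11.17. All 3 were dim on both E11.5 arrays and bright at E14.5.

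Promoters of contractile genes were searched for the E-box, the site CANNTG that myogenic factors bind, since these genes were higher together. Windows of 300 bases, from 250 before to 50 after the start, were taken from RefSeq (GRCm38.p6). Among thick and thin filament genes the largest differences were those of Tnnt3, Myl4, Myh8, Myom2 and Myh3, of which Myl4, Myh8 and Myh3 had a window. They lie on mouse chromosome 11, plus strand, at chr11:104550413-104550712, chr11:67276874-67277173 and chr11:67078050-67078349. Capitals mark each E-box, and Myl4, with none, is all lower case.
Myl4: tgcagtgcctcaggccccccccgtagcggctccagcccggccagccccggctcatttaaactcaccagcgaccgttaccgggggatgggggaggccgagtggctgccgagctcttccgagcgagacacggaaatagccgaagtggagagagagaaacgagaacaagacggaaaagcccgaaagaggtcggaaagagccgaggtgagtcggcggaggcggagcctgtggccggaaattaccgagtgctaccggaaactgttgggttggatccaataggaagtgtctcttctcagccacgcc
Myh8: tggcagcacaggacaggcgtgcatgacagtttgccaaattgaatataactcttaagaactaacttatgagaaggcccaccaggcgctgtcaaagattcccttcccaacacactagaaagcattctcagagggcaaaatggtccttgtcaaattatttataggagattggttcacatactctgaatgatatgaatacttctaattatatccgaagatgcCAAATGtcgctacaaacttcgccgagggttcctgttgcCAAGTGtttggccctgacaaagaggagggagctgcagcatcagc
Myh3: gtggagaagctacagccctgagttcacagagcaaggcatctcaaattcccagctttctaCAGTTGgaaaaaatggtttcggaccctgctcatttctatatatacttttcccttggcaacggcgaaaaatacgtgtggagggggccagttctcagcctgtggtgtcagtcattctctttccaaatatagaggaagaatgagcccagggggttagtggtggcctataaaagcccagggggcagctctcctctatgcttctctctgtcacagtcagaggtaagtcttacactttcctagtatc

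The form CAGCTG is one that MyoD and myogenin bind well. The next windows belong to the 3 thick or thin filament genes with the largest differences whose window holds it, a choice made after the windows had been read: Acta1 (chr8:123894726-123895025, minus strand), Tnnt2 (chr1:135836084-135836383, plus) and Mybph (chr1:134193198-134193497, plus). CAGCTG begins 221 bases before the start in Acta1, 223 and 157 bases before it in Tnnt2 and 79 bases before it in Mybph; the other capitals are E-boxes of other letters.
Acta1: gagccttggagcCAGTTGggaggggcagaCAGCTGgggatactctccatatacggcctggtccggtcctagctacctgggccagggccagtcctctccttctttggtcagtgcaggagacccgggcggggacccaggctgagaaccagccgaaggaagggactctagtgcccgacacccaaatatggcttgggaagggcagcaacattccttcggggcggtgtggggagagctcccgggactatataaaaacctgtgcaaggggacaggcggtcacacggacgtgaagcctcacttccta
Tnnt2: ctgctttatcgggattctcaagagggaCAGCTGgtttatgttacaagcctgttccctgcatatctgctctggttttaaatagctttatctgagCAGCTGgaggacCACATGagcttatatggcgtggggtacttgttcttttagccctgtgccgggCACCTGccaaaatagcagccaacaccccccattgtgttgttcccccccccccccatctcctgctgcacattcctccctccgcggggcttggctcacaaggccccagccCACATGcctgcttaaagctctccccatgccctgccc
Mybph: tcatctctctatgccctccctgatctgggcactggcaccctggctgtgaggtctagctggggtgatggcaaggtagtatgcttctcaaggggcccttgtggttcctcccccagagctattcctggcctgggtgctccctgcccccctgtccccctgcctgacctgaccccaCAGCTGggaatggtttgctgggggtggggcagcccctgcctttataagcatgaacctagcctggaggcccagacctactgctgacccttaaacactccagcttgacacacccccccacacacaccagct

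CANNTG reads the same way on both strands and was held by 37 of the 44 contractile genes with a window (84.1%), against 62.9% of 9931 measured genes and 72.3% of 32851 windows in all. CAGCTG, which every count of CANNTG includes, was held by 19 of the 44 (43.2%), against 15.1% of measured genes and 16.3% of all windows. For CACCTG, or CAGGTG on the other strand, 11 of the 44 held it, against 17.3% and 20.2%. A match describes letters in the window and is not evidence of binding.

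Genes that specify muscle were already present at E11.5, and only some were higher at E14.5. Of the 14 measured myogenic and fusion factors, 9 were higher and none was lower, with a median of 1.51; without E11.5 replicate 2, 1 was lower. Myf5 and Myod1, which commit cells to muscle, read 8.36, 7.77 and 8.46 and 8.26, 8.73 and 8.87, so neither was counted. Myog, which drives differentiation, read 9.44, 9.7 and 11.34, higher by 1.77 than at E11.5. The late factor Myf6 (Mrf4) was under the level on both E11.5 arrays and read 3.05, 3.11 and 7.2. On the earlier medial arrays Myf5, Myod1 and Myog were all under the level at E10.5 (3.92 to 4.63, 4.1 to 4.56 and 3.81 to 4.61).

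The fusion genes Mymk (myomaker) and Mymx (myomixer), whose proteins let myoblasts merge, read 4.75, 5.28 and 7.85 and 6.89, 6.95 and 9.54. Mef2c, a partner of the myogenic factors, read 7.85, 7.99 and 10.88, with probe set differences of 1.1 to 3.57. Mef2d and Mef2a were also higher (1.48 and 1.29), with probe set differences of -0.31 to 1.48 and -0.54 to 1.32. The myoblast cadherin gene Cdh15 was higher by 1.53. Rbm24, a splicing factor of striated muscle, was counted on its main probe set (1.82), but its probe sets ran from -0.89 to 1.82 and the call was lost with their mean (0.028). With the mean or the least different of the probe sets, 6 members of the list were higher. Smyd1, a methyltransferase of striated muscle, differed by -0.54 on its main probe set, while one of its other probe sets differed by 4.27. Of 9 measured genes of muscle precursors, 1 was higher (11.1%, the share of all measured genes) and 3 were lower (33.3%, against 3.67%). As deposited 3 were higher and none was lower, and with the least different probe set 1 was lower. Without E11.5 replicate 2, 2 were higher. Pax7, a marker of muscle stem cells, read 4.31, 4.48 and 5.86. The lower members were Eya1 (8.26, 8.09 and 5.78; probe sets from -2.39 to -0.71), Tcf21 (8.65, 8.49 and 6.42), which marks precursors of head muscle, and Six4 (8.43, 8.2 and 7.07), whose other probe sets differed by -0.07 and -0.09. Pax3 and the migration receptor gene Met were not counted on their main probe sets (-0.21 and 0.93), but their probe sets disagreed, from -0.21 to 1.59 and from -2.02 to 0.93.

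In the thick filament list, 12 of 14 measured members were higher and none was lower, with a median of 4.58; 6 had an E11.5 mean under the level. Among the heavy chains, those of the developing fibre had the largest differences: Myh3, the embryonic myosin heavy chain, read 6.42, 8.3 and 13.13 (54.4-fold against the E11.5 mean), and Myh8, the perinatal chain, 4.34, 5.7 and 10.88 (58.2-fold). Myh7, the slow chain, read 4.16, 4.62 and 8.9. The adult fast chains Myh2 and Myh4 were under the level at both stages, at 2.8 and 3.0 at E14.5. Myh1, the third, was dim on its main probe set (3.24 at E14.5), but 2 other probe sets reached the level and were both higher by 1.64. Both carry a suffix (_a or _x), and whether they also read related myosin genes was not tested. With the brightest probe set over the 3 arrays, 13 of 15 members were higher, and with unsuffixed probe sets 11 of 13.

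Among light chains, Myl4, the form of embryonic and atrial muscle, read 5.73, 6.82 and 12.70, though a dimmer probe set differed by 0.31. The fast fibre chains Mylpf and Myl1 were bright already at E11.5 and read 8.17, 8.49 and 12.98 and 7.72, 7.77 and 11.57. Myl2, the slow and ventricular chain, read 2.76, 3.1 and 6.24. Genes of the M-band, where thick filaments are tied together, were Myom1 (4.3, 4.04 and 9.76), Myom2 (2.76, 2.99 and 8.67) and Myom3 (3.76, 3.42 and 6.84). The myosin-binding proteins Mybph and Mybpc1 differed by 4.91 and 3.95, although another probe set of Mybpc1 differed by 0.1. The cardiac forms Myh6 and Myl3 were not counted, at 0.53 and -0.02, with probe sets of Myl3 from -0.02 to 1.91.

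Of 17 thin filament genes 13 were higher and none was lower, with a median of 3.97; 4 had an E11.5 mean under the level. Tnnt3, the fast troponin T, read 5.24, 4.86 and 11.55 (90.1-fold) and Tnnt2, the cardiac form also made by embryonic skeletal muscle, 5.6, 6.48 and 11.06. Tnnt1, the slow form, was bright at E11.5 and was not counted, since it read 10.52, 10.86 and 11.81. Both skeletal troponin I genes were higher: Tnni1 (slow) read 7.53, 7.83 and 12.15 and Tnni2 (fast) 5.71, 5.45 and 9.75.

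Troponin C, which binds calcium, showed the same for Tnnc2 (7.27, 7.68 and 12.64) and Tnnc1 (7.11, 8.33 and 12.03). The 2 striated actins differed in where they stood at E11.5. Actc1, the cardiac actin that embryonic skeletal muscle uses first, was at 5.25 to 6.19 on the medial E10.5 arrays and then read 11.40, 11.73 and 13.61. Acta1, the skeletal actin, read 6.58, 8.0 and 12.48, so Actc1 was the brighter probe set at each stage but Acta1 had the larger difference (5.19 against 2.04); levels of different probe sets are not comparable as amounts. Leiomodins, which nucleate actin, followed with Lmod3 (3.97) and Lmod2 (3.88), as did the capping protein gene Tmod1 (2.4) and Nrap (1.97), of filament assembly. The tropomyosin genes Tpm1 and Tpm2, which lie along the filament, were not counted (0.34 and 0.6), but their probe sets ran from -2.49 to 2.96 and from 0.6 to 3.57. Neb, the ruler of the thin filament, read 3.8, 5.97 and 9.94, with replicates 2.17 apart at E11.5.

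Z-disc and titin genes were higher in 14 of 15 measured members, with a median of 2.94; 7 had an E11.5 mean under the level, and without E11.5 replicate 1 the remaining member was lower. Smpx, a small protein of the muscle cytoskeleton, read 3.27, 3.8 and 10.79 (153-fold), Csrp3, the muscle LIM protein, 4.22, 3.97 and 10.52 and Myot, myotilin of the Z-disc, 3.23, 3.72 and 9.16. Actn2, the actinin that crosslinks thin filaments, read 4.91, 5.8 and 10.53. Ttn, the giant spring of the sarcomere, read 6.99, 8.35 and 10.60, with probe sets higher by 0.96 to 3.92. Des, the muscle intermediate filament, read 7.17, 7.6 and 9.84. Further Z-disc proteins were Myoz2 (5.36), Ldb3 (3.19), Pdlim3 (3.0), Tcap (1.73), Myoz1 (1.61) and the filamin gene Flnc (1.56). Xirp1, an actin-binding protein, and the LIM protein gene Fhl1 were higher by 2.94 and 2.4. Actn3, the actinin of fast fibres, was the exception, at 6.66, 7.4 and 6.4.

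Release of calcium couples excitation to contraction, and 9 of 14 measured genes of that list were higher while Ryr1 was lower. The median was 2.02, and 3 of the 14 had an E11.5 mean under the level. Casq2 and Casq1, which store calcium in the sarcoplasmic reticulum, read 5.61, 6.0 and 11.27 and 5.57, 4.74 and 8.66. Sln, sarcolipin, a regulator of the calcium pump, read 5.99, 6.09 and 11.13, and the pump gene Atp2a1 6.51, 7.26 and 8.9. The voltage sensor genes Cacna1s and Cacng1 read 2.86, 3.48 and 6.34 and 3.52, 3.58 and 7.86. Further proteins of the reticulum or its junctions were Srl (3.58), Hrc (2.03) and Jph2 (1.43, with probe sets from -0.08 to 1.43). Ryr1, the release channel, read 6.31, 6.44 and 5.1 on its main probe set, but its other bright probe set was higher by 2.47, so its direction depended on the probe set.

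**Figure D3:**
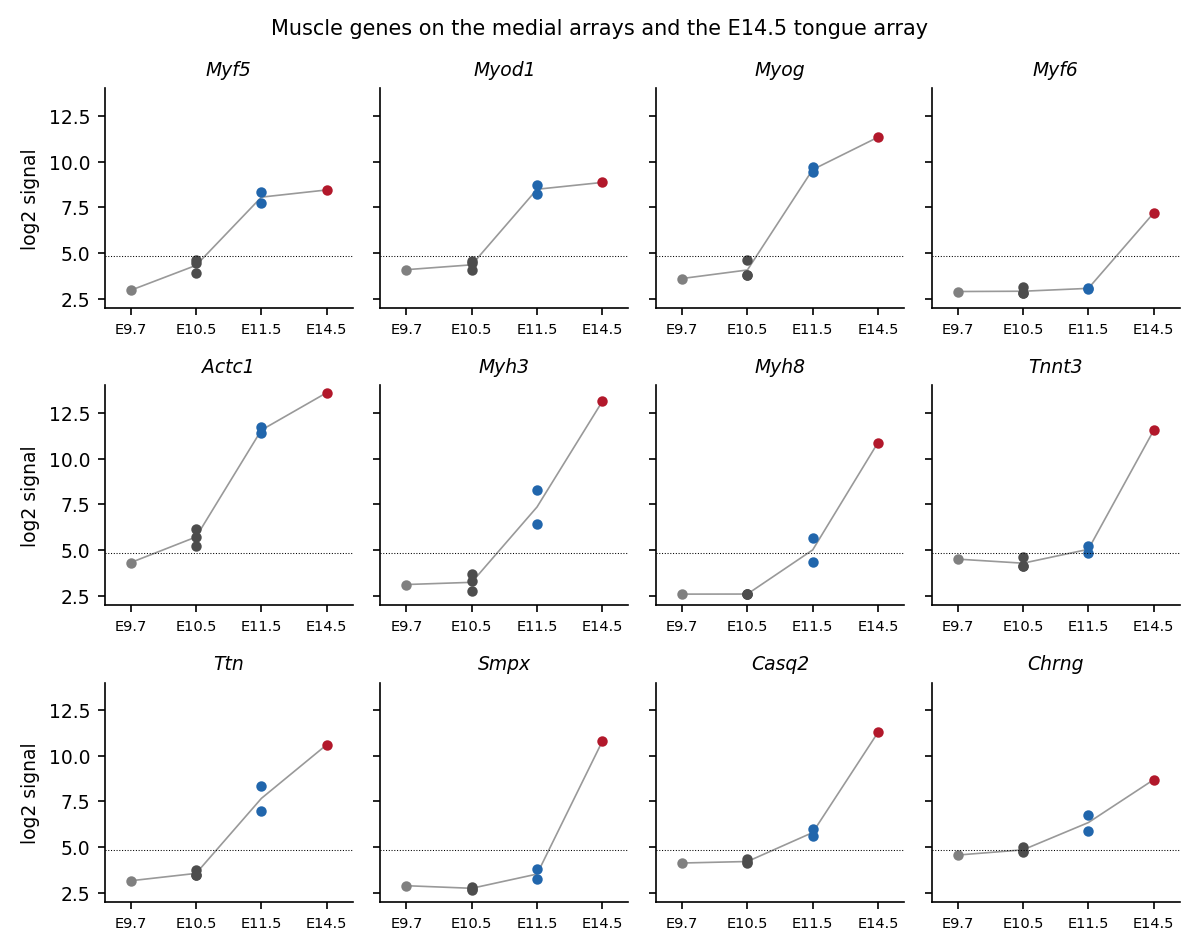
Log2 signal (vertical axis, dotted line at the filter level of 4.86) of 12 muscle genes on 1 E9.7, 3 E10.5 and 2 E11.5 medial arrays and the E14.5 tongue array, 1 point per array, with a line through the group means. Myf5, Myod1, Myog and Actc1 stand high at E11.5, whereas Myf6, Tnnt3 and Smpx are close to the dotted line or under it until E14.5.

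Genes of the neuromuscular junction were higher in 5 of 10 measured members, with a median of 1.54. They were the acetylcholine receptor subunits Chrna1 (5.84, 5.88 and 8.78), Chrnb1 (5.01, 5.5 and 8.81) and Chrng (5.91, 6.79 and 8.69), the enzyme gene Ache (3.05, 3.09 and 6.33), which breaks the transmitter down, and Rapsn (6.42, 6.0 and 8.88), which clusters the receptors. The embryonic subunit gene Chrng was thus higher by 2.34, while Chrne, the adult subunit that replaces it, differed by -0.19. Of 12 genes of muscle energy metabolism 9 were higher, with a median of 3.01, and 4 of the 12 had an E11.5 mean under the level. Ckm, muscle creatine kinase, read 5.2, 5.07 and 9.17 on its main probe set (another differed by 0.04), Pygm, which breaks glycogen down, 3.4, 4.03 and 8.09 and Pgam2, the muscle phosphoglycerate mutase, 6.21, 6.49 and 10.05. Mb, myoglobin, was not counted (0.9).

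Other muscle types were checked with their markers. Of 10 measured smooth muscle and pericyte genes 4 were higher (40%, beside 11.1% of all measured genes), among them Actg2 (2.61) and Tagln (2.3). Acta2 (0.82), Kcnj8 (0.08) and Myocd (-0.44) were not counted, and probe sets of Rgs5 ran from -1.1 to 0.66. Myh11 and Cnn1, which define smooth muscle, were under the level. With arrays centred on their medians 7 were higher, and with the least different probe set 2. Only 2 of 7 heart markers were measured, Nkx2-5 and Nppb, and neither was counted, while with either E11.5 array left out 1 was higher.

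Genes of the covering epithelium also had large differences. Of 18 measured genes of stratified epithelium 13 were higher and none was lower, with a median of 2.49; 6 had an E11.5 mean under the level. The basal keratins Krt5 and Krt14 read 6.11, 5.71 and 10.42 and 5.85, 5.41 and 10.78. Krt14 was 35.5-fold higher than the E11.5 mean. On the earlier arrays Krt14 read 7.63 at E9.7 and 7.44 to 7.94 at E10.5, above both E11.5 values. The order of levels was therefore lowest at E11.5 and highest at E14.5.

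Krt15 and Krt17, of basal and appendage cells, read 8.2, 7.75 and 11.28 and 2.19, 2.71 and 6.63. Col17a1, a collagen of the hemidesmosome, read 4.41, 5.02 and 9.44, and Lamb3, a laminin chain under the basal layer, 3.52, 4.54 and 7.36. Dsp, desmoplakin of the desmosome, was higher by 2.79, but one of its probe sets was lower by 1.73. Trp63, the master regulator of stratified epithelia, read 7.43, 7.09 and 9.17, with probe sets from -0.99 to 1.91. Of the mucosal keratins, Krt4 read 4.19, 4.29 and 6.73 and Krt13 was under the level. The epidermal keratin genes Krt1 and Krt10 were not counted (0.93 and 0.1).

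Genes shared by all epithelia had a median difference of 1.09. Their median level was 8.0 on the medial E9.7 array, 7.28 to 8.07 at E10.5, 6.42 and 6.66 at E11.5 and 7.63 at E14.5. E14.5 thus lay above E11.5 but not above the earlier medial arrays as a group. Of 15 measured members 8 were higher and none was lower, and with unsuffixed probe sets 5 were higher. Cdh1, E-cadherin, read 7.01, 7.83 and 9.29 and Epcam 8.0, 8.03 and 9.42. Simple epithelial keratins showed Krt19 higher by 2.34 and Krt8 by 1.03 (probe sets from 0.75 to 1.03), while Krt18 differed by 0.71. Cldn6, a claudin of embryonic epithelia, pointed the other way (-0.9) without being counted. In such bulk tissue, more cells of a type and more RNA per cell cannot be told apart, here and for the other lists.

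Among regulators of tongue papillae 3 of 10 measured genes were higher and 3 were lower, with a median of 0.5. That was 30% each way, beside 11.1% and 3.67% of all measured genes. None was lower as deposited, with arrays centred on their medians, with the mean of the probe sets or with the least different one. Sox2, needed for taste bud formation, read 7.37, 6.99 and 8.85 and Wnt10a, a ligand of developing papillae, 4.22, 4.4 and 5.87. Foxa2, of pharyngeal endoderm, read 6.97, 6.99 and 8.42. The lower members were Six4, Fst and Shh. Shh, the hedgehog ligand that papillae and the early lingual epithelium make, read 9.18, 9.16 and 8.12, lower by 1.05 on the log2 scale, with probe sets from -1.05 to -0.92. Its receptor and target gene Ptch1 was not counted on its main probe set (-0.88), but its other probe sets were lower by 1.77 and 1.18 on the log2 scale. Gli1, another target, differed by -0.35. Of 13 measured hedgehog genes, Boc (co-receptor, 1.42, with probe sets from 0.81 to 1.42) was counted higher and Shh lower. That was 7.69% each way, beside 11.1% and 3.67% of all measured genes. Foxf1 had the lowest difference of the list (-1.17) but was not counted, and its other probe set differed by -2.06. With probe sets averaged none was higher and 2 were lower. Without E11.5 replicate 1, 3 were lower, and without replicate 2, 2 were higher.

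**Figure D4:**
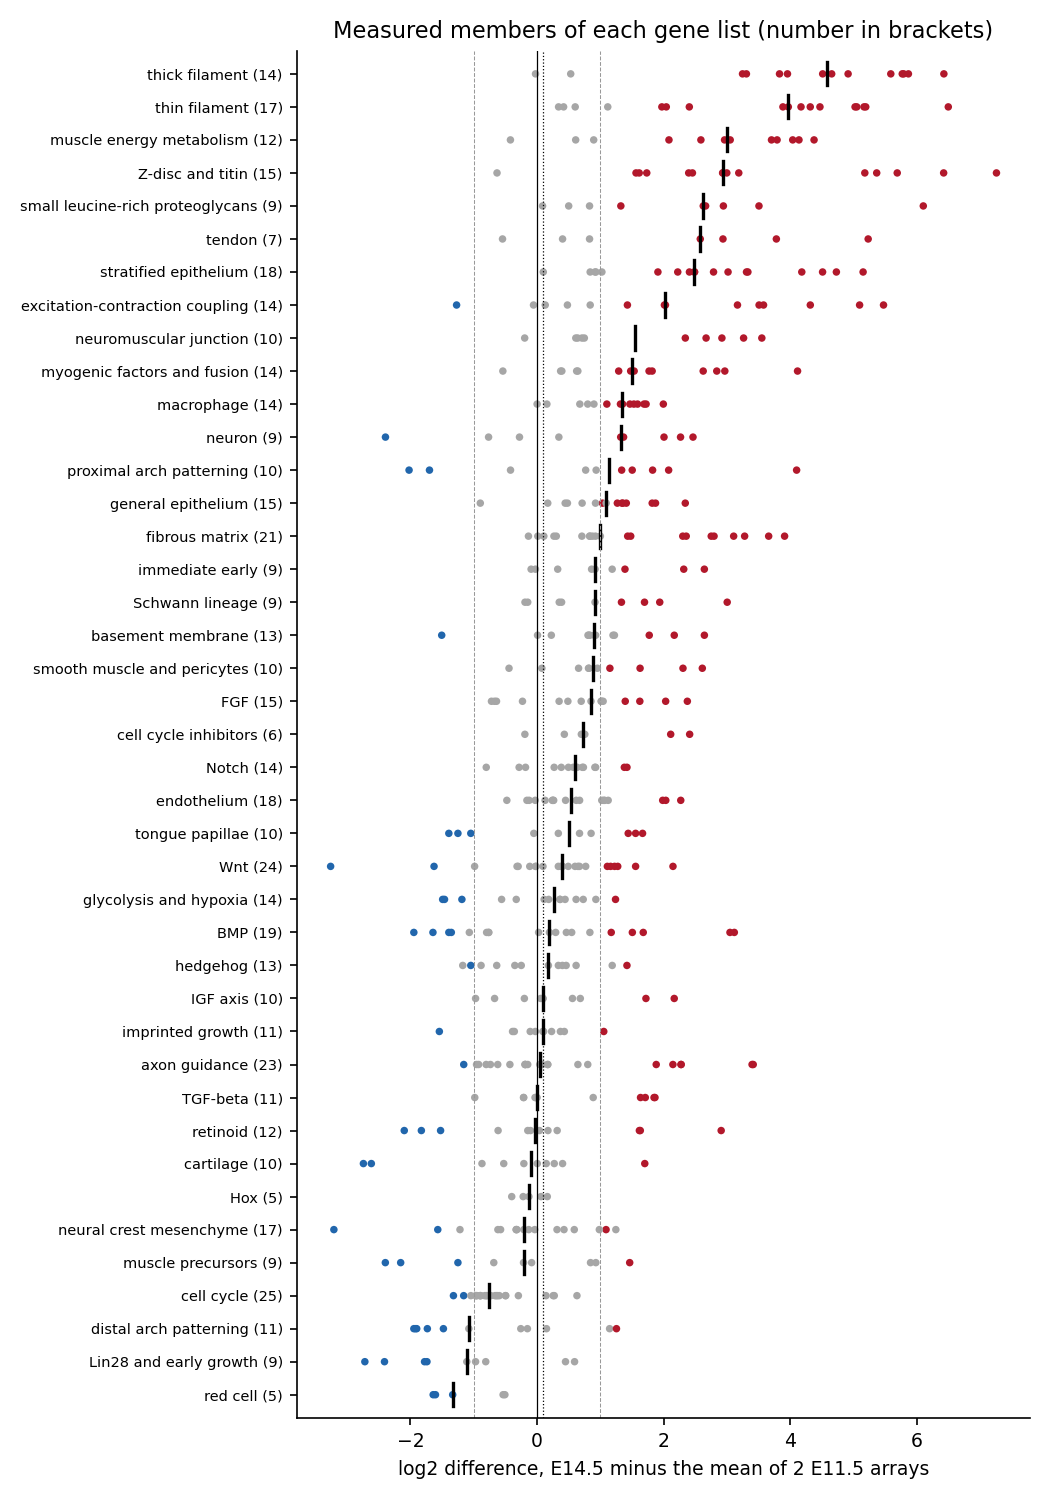
Log2 difference between E14.5 and the mean of both E11.5 arrays (horizontal axis) for the measured members of each gene list with at least 5, 1 point per gene; red and blue points are genes counted higher and lower, black bars are list medians, dashed lines mark 2-fold and the dotted line the median of all genes. Medians run from 4.58 for the thick filament down to red cell genes, and the red cell median of -1.33 was 0.1 in the values as deposited.

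Connective tissue genes formed a further group. Of 9 measured small leucine-rich proteoglycan genes 6 were counted higher (66.7%, beside 11.1% of all measured genes) and none was lower. The median was 2.62, and 4 of the 9 had an E11.5 mean under the level. Prelp had the smallest difference (0.09, another probe set 2.15), beside a median of 0.09 for all measured genes. Aspn, asporin, read 3.14, 2.6 and 8.97 (68.5-fold), Dcn, decorin, 7.85, 7.34 and 10.54 and Lum, lumican, 7.07, 7.08 and 10.58. Bgn, biglycan, read 8.02, 8.39 and 10.83. Of 21 genes of the fibrous matrix 10 were higher and none was lower, with a median of 1.0. The collagen VI chains Col6a1, Col6a2 and Col6a3, which surround muscle fibres, read 7.5, 8.48 and 11.27, 8.73, 9.41 and 11.87 and 7.46, 8.24 and 11.76. Eln, elastin, read 6.34, 6.58 and 10.12 (probe sets from 0.59 to 3.66), and the crosslinking enzyme gene Lox 6.62, 7.45 and 10.14. Col1a1 was not counted on its main probe set, which read 8.7, 10.05 and 9.68, but its other probe set was higher by 3.01.

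Of 7 tendon genes 4 had an E11.5 mean under the level, and 4 (57.1%, beside 11.1% of all measured genes) were counted higher. They were the matrix genes Col14a1 (3.76, 4.23 and 9.22), Tnc (6.97, 7.31 and 10.92), Thbs2 (2.94) and Thbs4 (2.58), whereas Scx, the transcription factor that defines tendon progenitors, differed by -0.54 and Tnmd was under the level. In the basement membrane list Lama3, of epithelia, and Lama4, of vessels and muscle, were higher by 2.64 and 2.17. The list had 3 of 13 members higher (23.1%) and 1 lower (7.69%), beside 11.1% and 3.67% of all measured genes. The higher count was 10 without E11.5 replicate 2, 7 with arrays centred on their medians and 1 when probe sets were averaged. Probe sets of Lamb1 (-2.13 to 1.46), Lamc1 (-1.71 to 1.77) and Nid1 (-2.03 to 0.91) disagreed in sign. Lama1, of early embryonic membranes, was lower: it read 6.2, 6.86 and 5.03.

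Most genes of cartilage and bone were dim or not counted. Of 10 measured cartilage genes Col2a1, the main cartilage collagen, read 9.04, 9.86 and 6.71, and Col9a1, which decorates its fibrils, differed by -2.62. Sox6 was higher (1.7) and Sox9, which specifies cartilage, differed by -0.21. Matn1, Matn3, Comp and Hapln1 were under the level. Of 10 bone genes 3 were measured, among them Sp7 (0.19), and none was counted. With the brightest probe set over the 3 arrays 4 were measured and 1 was higher, and Dmp1, of the bone matrix, has a probe set that reached the level and was higher by 3.1.

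Patterning genes of the distal arch were more often lower than higher. Of 11 measured members 5 were lower (3.67% of all measured genes were) and 1, Tbx3, was higher, with a median of -1.08; in the values as deposited, in which no member was counted lower, that median was 0.65 against 1.76 for all genes. Without E11.5 replicate 2, 2 were higher and 6 lower. Msx1, a homeobox gene of arch mesenchyme, read 7.24, 7.31 and 5.8, after 10.36 to 10.94 at E10.5, and its other probe set differed by -0.94. Msx2 read 6.45, 5.39 and 4.02 after 9.89 to 10.25. Both were therefore lower at each stage from E10.5 on, although the E11.5 replicates of Msx2 were 1.06 apart.

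Bmp4, a signal of the distal epithelium and mesenchyme, read 9.75, 10.14 and 8.0. Hand1 read 7.11, 7.68 and 5.66 and Gata3 6.14, 6.24 and 4.27. Hand2, which sets the distal identity of the arch and acts in the mesenchyme of the tongue, was bright on all arrays and read 10.76, 11.16 and 10.70 on its main probe set, whereas its other probe sets were lower by 2.22 and 1.66 on the log2 scale. Isl1 differed by -0.15. Alx1 read 8.49, 8.06 and 7.2, 2-fold lower than 1 of the replicates only, and another probe set differed by -0.57. Tbx3 read 6.66, 6.88 and 8.02, with probe sets from -0.79 to 1.36, and its relative Tbx2 differed by 1.15.

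Genes of the proximal arch were split, with 5 of 10 measured members higher, 2 lower and a median of 1.14; 4 had an E11.5 mean under the level. As deposited 7 were higher and none lower. Dlx1 and Dlx2, homeobox genes that set position along the arch, read 4.33, 4.03 and 6.0 and 4.85, 4.7 and 6.11. At E10.5 they had read 5.16 to 7.25 and 7.28 to 7.67 in the medial piece and 9.07 to 9.41 and 9.57 to 9.96 in the lateral piece. E14.5 values thus lay above those of the medial E11.5 piece and far under those of the lateral E10.5 piece. Lhx8 read 6.33, 5.57 and 8.03, under its medial E10.5 values (8.66 to 9.53), and Barx1 5.76, 5.77 and 7.27.

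Sim2, a transcription factor gene of the bHLH-PAS family, stood apart from these. It read 4.19, 3.86 and 8.12, above all lateral E10.5 values (6.0 to 6.32) as well. Gsc (goosecoid) and Pou3f3 were the lower members, at 8.04, 8.28 and 6.14 and 8.07, 8.55 and 6.61. Dlx5, Dlx6, Gbx2 and Emx2 were under the level at both stages.

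**Figure D5:**
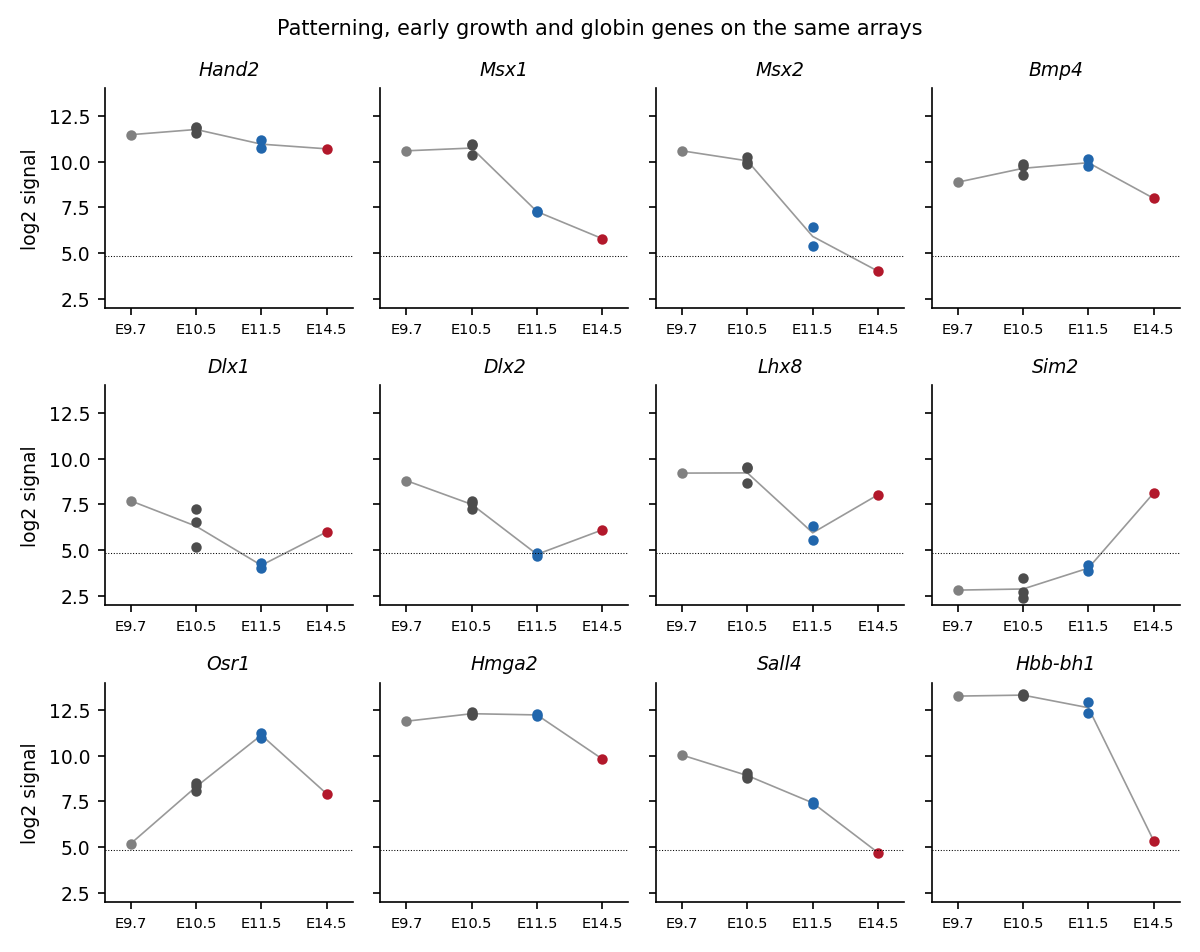
Log2 signal (vertical axis, dotted line at 4.86) of 12 patterning, growth and globin genes on the medial arrays from E9.7 to E11.5 and on the E14.5 tongue array, 1 point per array, with a line through the group means. Msx1 and Msx2 step down at E11.5 and again at E14.5, Osr1 is highest at E11.5, Dlx1, Dlx2 and Lhx8 are lowest at E11.5, and Hbb-bh1 reads 5.36 at E14.5 after 12.33 to 12.91 at E11.5.

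Genes of neural crest mesenchyme differed little as a group, with a median of -0.21 (1.41 in the values as deposited, against 1.76 for all genes). Of 17 measured members 1, Tfap2a (1.09, another probe set -0.29), was higher (5.88%) and 2 were lower (11.8%). Among all measured genes 11.1% were higher and 3.67% lower. Without E11.5 replicate 1, 2 were higher and 4 lower, and without replicate 2, 2 were higher and 2 lower. Osr1, an odd-skipped transcription factor gene, was among the 12 named genes with the lowest differences and read 11.26, 10.99 and 7.92. At E9.7 it read 5.2 and at E10.5 8.06 to 8.51, so E11.5 was its peak on these arrays. Snai2 (Slug), a regulator of crest migration, differed by -1.57 (0.14 as deposited), with another probe set at -0.73. Its relative Snai1 read 6.79, 7.5 and 5.93, 2-fold lower than 1 replicate. Twist1 (0.43), Prrx1 (-0.33; probe sets from -1.68 to 0.07) and Foxd1 (-0.13) were not counted.

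Of 19 BMP genes 5 were higher (26.3%) and 4 lower (21.1%), beside 11.1% and 3.67% of all measured genes. As deposited, none of the BMP, FGF, Wnt, retinoid, TGF-beta, Notch and axon guidance genes was counted lower, and the BMP counts were 6 and 0 (6 and 2 with arrays centred on their medians). The ligand Bmp6 read 3.8, 4.39 and 7.21 and Bmp2 6.76, 6.69 and 8.41, and the antagonist Chrdl1 3.85, 4.44 and 7.19. Besides Bmp4, the lower members were the antagonist genes Grem1 (6.89, 5.7 and 4.65) and Fst (9.0, 8.86 and 7.54) and the inhibitory Smad6 (8.17, 8.17 and 6.82). A second probe set of Fst was higher by 0.47.

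Among 15 FGF genes 4 were higher (26.7%, beside 11.1% of all measured genes) and none was lower. Without E11.5 replicate 2, 7 were higher. The feedback inhibitors Dusp6 and Spry1, which FGF signalling induces, were higher by 2.37 and 2.03. The receptor gene Fgfr3 was higher by 1.62 (another probe set differed by -0.3) and Fgf18 by 1.39. Etv4 and Etv5, further FGF targets, were not counted (-0.23 and 0.49, with probe sets of Etv5 from -1.43 to 0.49).

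Of 24 Wnt genes 6 were higher (25%) and 2 lower (8.33%), beside 11.1% and 3.67% of all measured genes. As deposited the counts were 8 and 0. Wif1, a secreted inhibitor, read 4.84, 6.24 and 7.69, and Wnt5a, which directs tissue outgrowth, 8.47, 8.64 and 9.66, with one probe set of the opposite sign (-0.98). Rspo2, which strengthens Wnt signals, read 9.51, 9.36 and 6.18, but its second probe set differed by 0.01, and Frzb, another secreted inhibitor, read 7.32, 7.18 and 5.63. Axin2, a general target of the pathway, differed by 0.65.

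In the retinoid list 3 of 12 genes were higher and 3 lower, 25% each way beside 11.1% and 3.67% of all measured genes. As deposited the counts were 4 and 0. Cyp26a1, which degrades retinoic acid, read 5.28, 5.35 and 8.22, while Aldh1a2, which makes it, read 7.5, 7.71 and 5.78. Crabp2, which carries it to its receptor, read 11.05, 10.80 and 8.83, and Stra6, the transporter of retinol, 7.03, 7.82 and 5.9. Aldh1a3, another synthetic enzyme, was higher by 1.62.

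Of 11 TGF-beta genes 4 were higher (36.4%, beside 11.1% of all measured genes) and none was lower on main probe sets. With the mean of the probe sets 1 was higher and 1 lower, and without E11.5 replicate 1, 1 was lower. Tgfbr1 differed by -0.02 on its main probe set but by -2.81 and -2.78 on others. Smad3 likewise differed by -0.03, but by -1.03 and -1.86 on others. Ltbp1 and Ltbp3, which hold the latent ligand in the matrix, differed by 1.86 and 1.85, and the ligand gene Tgfb3 by 1.63. Among 14 Notch genes 2 were higher (14.3%, near the 11.1% of all genes), Notch1 (1.42; another probe set 0.07) and Heyl (1.38; probe sets from 0.67 to 1.49). That count was 5 without E11.5 replicate 2 and 0 with the least different probe set. Of 23 genes of axon guidance, also used in vessels and mesenchyme, 6 were higher on main probe sets and Efna5 was lower (-1.16). The largest differences were those of Sema3c (6.87, 7.2 and 10.45) and Epha3 (7.69, 7.17 and 10.82, with probe sets from 0.21 to 3.4). With either E11.5 array left out 2 were lower, and with the least different probe set 3 were higher. Probe sets disagreed in further members. Epha4 differed by 0.8 on its main probe set but by -2.53, -2.78 and -2.76 on others, and Sema3a by -0.95 but by -2.45 and -2.16 on others. Efnb2 ran from -2.63 to 0.08 and Epha7 from -0.56 to 2.78.

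Early growth regulators were lower or not counted. Of 9 measured members of the Lin28 list 4 were lower and none was higher, with a median of -1.11, which was 0.63 against 1.76 for all genes in the values as deposited, where no member was counted lower. Hmga2, a chromatin protein of proliferating embryonic tissue, read 12.17, 12.28 and 9.82, and Sall4, a stem cell factor, 7.46, 7.38 and 4.71. The RNA-binding protein gene Igf2bp1 read 10.01, 10.14 and 8.34 (probe sets from -2.35 to -0.48) and Trim71 5.9, 5.31 and 3.83 (probe sets from -1.78 to -0.78). With the least different of the bright probe sets, 2 of these members were counted lower. Lin28a, which blocks maturation of let-7 microRNAs, was under the level at E11.5 and read 3.17, 3.48 and 2.44 after 10.13 at E9.7 and 5.01 to 6.82 at E10.5.

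Most cell cycle genes had small negative differences on their main probe sets. Of 25 measured members 21 had negative differences, with a median of -0.75 against 0.09 for all measured genes. Only Aurka and Ccna2 were counted lower (8%, beside 3.67% of all measured genes) and none was higher. The lower count was 5 without E11.5 replicate 1, 4 with unsuffixed probe sets, 15 at 1.5-fold and 0 with arrays centred on their medians. Probe sets differed in size, from -3.79 to -0.22 for Mcm3, -2.54 to -0.51 for Rrm2 and -2.11 to 0.14 for Ccnd1. Those of Mcm7 ran from -1.43 to -0.53 and those of Cdc20 from -1.37 to -0.59. As deposited, the median was 0.89 against 1.76 for all genes. Aurka, a mitotic kinase, read 9.66, 9.31 and 8.17 and Ccna2, the S phase cyclin, 10.45, 10.36 and 9.25 (another probe set differed by -0.32). Mki67, a proliferation marker, read 10.44, 10.99 and 9.75 and Top2a 11.38, 11.44 and 10.47 (another probe set differed by -1.35). The D-type cyclin gene Ccnd2 had the largest positive difference on main probe sets (0.63), with probe sets from -0.52 to 2.08. Inhibitors of the cycle were higher in 2 of 6 measured genes: Cdkn1a (p21), which rises as myoblasts leave the cycle, read 7.54, 7.91 and 10.13 and Cdkn2c (p18) 6.72, 6.97 and 8.96.

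Imprinted growth genes stood near the top of the range at both stages, Igf2 at 13.21, 13.36 and 13.38 for example (another probe set differed by -2.16). Of 11 members 1 was counted each way (9.09%, beside 11.1% and 3.67% of all measured genes). With the mean of the probe sets 3 were lower. Zim1 was higher by 1.05 and Peg10 read 5.05, 5.91 and 3.94. Probe sets disagreed widely here, from -4.34 to -0.11 for Grb10. Outside the lists, the imprinted gene Nnat, neuronatin, read 12.32, 12.57 and 8.38.

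The mouse embryo switches from embryonic to adult globins as blood formation moves to the liver. All 3 embryonic globins were lower. Hbb-bh1 read 12.91, 12.33 and 5.36, 154-fold under the E11.5 mean and the lowest difference of all measured genes, with its 3 probe sets from -7.26 to -6.57. Hba-x, the embryonic alpha-like chain, read 12.76, 12.59 and 8.19. Hbb-y, the third, stayed bright and read 13.45, 13.47 and 12.35, a difference that turned positive (0.43) in the values as deposited. Of 5 other red cell genes 3 were lower (none as deposited): Klf1, the erythroid regulator, read 6.51, 5.95 and 4.9, Slc4a1, of the red cell membrane, 7.7, 7.7 and 6.1 (another probe set -0.87) and Kel 5.67, 5.68 and 4.04. Among adult globins Hba-a2 read 7.07, 5.84 and 3.59 and Hbb-b2 differed by 0.58 on its main probe set but was higher by 3.0 on another, and averaging probe sets gave 1 adult globin higher; near-identical globin copies may share probes. Embryos were rinsed to remove blood before dissection, per the labels, so the blood left in each sample is not known.

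Other genes with the lowest differences were of general function. Smc4, a condensin subunit, read 10.58, 10.51 and 5.48, with probe sets from -5.07 to -2.09. Malat1, a nuclear long noncoding RNA, read 10.51, 9.31 and 5.17, with probe sets from -5.31 to -0.37. Scaf11 and Acin1, of RNA splicing, Thoc2, of messenger export, and Esf1, of the nucleolus, differed by -4.33, -4.06, -3.78 and -3.5, but their probe sets spanned -4.33 to 0.1, -4.06 to -0.32, -3.78 to -0.47 and -3.5 to -1.54. Gpr50, a receptor related to those of melatonin, read 8.75, 9.0 and 4.85. The 3′ to 5′ gaps of the control probe sets stand beside these values, and their part was not tested.

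Markers of other cell types were as follows. Of 14 measured macrophage genes 9 were higher and none was lower, with a median of 1.33; 4 had an E11.5 mean under the level. Lyz2, lysozyme, read 4.49, 4.72 and 6.6, Mrc1, the mannose receptor, 6.9, 7.22 and 8.52 and Csf1r, the receptor for their growth factor, 7.36, 7.55 and 8.56 (probe sets from 0.5 to 1.36). Cx3cr1 (0.16) and Pf4 (0.0) differed little. The summed level of the macrophage list was 9.82 and 9.87 on the E11.5 arrays and 10.94 at E14.5 on the log2 scale. The mast cell proteases Cpa3 and Cma1 were higher by 1.88 and 1.63 and were dim at E11.5; with dim values raised to the level neither was counted.

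Endothelium had 3 of 18 genes higher (16.7%, against 11.1% of all genes) and none lower, with a median of 0.54; 8 were higher without E11.5 replicate 2 and 8 with arrays centred on their medians. Cd34 read 7.17, 7.39 and 9.55, Cdh5, VE-cadherin, 4.7, 5.88 and 7.33 and Vwf, the clotting factor of vessel walls, 3.22, 3.86 and 5.52. Pecam1 (0.13) and Kdr (-0.12), which define the type, were not counted.

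Nerve markers were mixed, and 3 of 9 measured neuronal genes and 3 of 9 of the Schwann lineage had an E11.5 mean under the level. Of the neuronal genes 55.6% were higher and 11.1% lower, beside 11.1% and 3.67% of all measured genes. Of 9 neuronal genes Dcx (6.44, 6.49 and 8.93), Stmn2 (4.32, 4.96 and 6.9), Tubb3 (5.91, 5.62 and 7.77), Syt1 and Elavl4 were higher, while Nefm, a neurofilament chain, was lower (8.35, 7.95 and 5.76). In the Schwann lineage Fabp7, of immature glia, read 4.22, 4.14 and 7.18 and Cdh19 was higher by 1.94, while Sox10, which defines the lineage, differed by -0.15 on its main probe set and by 1.18 on another. With dim values raised to the level 2 members were higher, against 4. Their summed levels were 10.16 and 9.85 at E11.5 and 10.45 at E14.5 for neurons, and 9.8, 10.12 and 10.80 for the Schwann lineage.

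Among 14 genes of glycolysis and hypoxia, Aldoa was higher (10.33, 10.57 and 11.69) and Pkm (11.38, 11.67 and 10.03), Ldhb (11.08, 10.93 and 9.82) and Pfkl (8.67, 9.29 and 7.52) were lower; Pfkl had a probe set of the opposite sign (0.15). The higher and lower genes were 7.14% and 21.4% of the list, beside 11.1% and 3.67% of all measured genes. As deposited 3 were higher and none lower, and without E11.5 replicate 1, 2 were higher. Immediate early genes, which respond within minutes to handling as well as to signals, were higher in 3 of 9 cases, and in 5 without E11.5 replicate 2. Egr1 read 6.26, 6.62 and 9.08, Fos 4.3, 4.78 and 6.86 and Nr4a1 5.86, 6.33 and 7.49. Jun (0.33; another probe set 1.8) and Ier2 (-0.09) were not counted. None of 5 measured Hox genes, which mark tissue behind the arch, and none of 4 sex-linked genes was counted. Probe sets of Xist ran from -2.43 to 1.6 and those of Uty from -1.2 to -0.02, so neither has a settled direction or size.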

How the data were processed

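Gene expression was measured on Affymetrix whole-genome mouse arrays. The deposited table holds log2 values made with Affymetrix Expression Console 1.1, per the submitters' processing notes; the summarisation algorithm is not given in the sources used here, and the log2 base was inferred from the range of the values, from 0.0887 up. On 2 arrays, E10.5 medial replicate 1 and E11.5 medial replicate 1, the deposited medians were 2.37 and 2.47 against 5.20 to 5.73 on the other 9, so all 11 arrays were quantile-normalized here. With 1 array in a group there is no spread, no p-value and no check against replicates; the number of arrays limits the precision.

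Of 45101 probe sets, 34958 had 1 gene symbol, 932 several and 9211 none. Names were updated by gene ID through RefSeq (GRCm38.p6) for 34754. Each of 18194 genes was read from the probe set with the highest mean over all arrays. The filter, the 2-fold rule and the lists follow the report; members and lists were chosen with earlier results of these data known. Named genes are the 12 highest and 12 lowest differences, members of the muscle and arch lists, and up to 6 members of each other list by size plus those going against it; genes called not counted or under the level, and Hbb-y, Hba-a2 and other further members, were added for context after their values were seen. Python 3.11.15, numpy 2.4.6, pandas 2.3.3 and matplotlib 3.10.9 were used. Alternatives were the scaling, filter, fold, probe set rule and leaving out each E11.5 array.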

Additional observations from a re-analysis of the deposited data

Results flagged for a closer look

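The control probe sets, which no comparison used, set the E14.5 array apart from the other 10 arrays in each of 6 messengers. The gap between the 3′ and the 5′ probe set, in log2 signal, was 1.22 for beta-actin against 0.26 to 0.49 elsewhere, and 0.15 for Gapdh against -0.15 to -0.03. For the spiked-in bacterial messengers it was 3.64 for dap against 0.82 to 1.28, 2.75 for thr against 0.98 to 1.46, 1.56 for phe against 0.15 to 0.73, and 1.34 for lys against 0.17 to 0.87. Their part in the differences between E14.5 and E11.5 was not tested.

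Probe sets without a gene name also carried differences. Of 2165 measured probe sets with no gene symbol, 120 (5.54%) were higher and 309 (14.3%) were lower at E14.5, the opposite balance to named genes (11.1% and 3.67%). Of 573 measured probe sets with several symbols, 36 were higher and 40 were lower. Named genes are counted once each and these probe sets singly, so the shares are of different units.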

How the results depend on the processing

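No paired analysis was possible because the E14.5 group has 1 array and shares 1 replicate number with E11.5. The rules of the least different probe set and of the brightest probe set over 3 arrays were chosen after seeing the data. Each setting gives a count with no test, and the cause of a shift was not tested unless the setting itself fixes it.

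The count of 1831 genes was 485 at 4-fold (422 higher, 63 lower) and 3625 at 1.5-fold (2452 and 1173). As deposited, 2483 genes were higher and 9 lower, and centred on array medians 2090 and 261. With the least different bright probe set 253 genes were lower. Without E11.5 replicate 1 or replicate 2, the higher count was 1584 or 1935 and the lower count 608 or 729. Distal arch members counted lower were 0 as deposited and 0 at 4-fold, against 5. Lin28 members were 0 as deposited, 2 at 4-fold, 7 at 1.5-fold and 2 with the least different probe set, against 4. With unsuffixed probe sets 1 embryonic globin, Hba-x, was counted lower, against 3. That setting drops all probe sets of Hbb-bh1 and of Hbb-y that reached the level, so they were left out and not reversed. The counts for contractile, stratified epithelium, proteoglycan and fibrous matrix genes stayed within 1.5 times under the settings run.

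As deposited, the log2 differences of these lower genes turned positive, in a scaling where the median of all genes was 1.76: Aurka 0.42, Ccna2 0.57, Efna5 0.60, Fst 0.34, Hbb-y 0.43, Klf1 0.10, Ldhb 0.52, Msx1 0.12, Pfkl 0.31, Pkm 0.20, Pou3f3 0.025, Ryr1 0.21, Shh 0.70, Six4 0.49, Slc4a1 0.035, Smad6 0.38, Snai2 0.14 and Stra6 0.11. With the least different probe set the sign turned for Dsp (-1.73), Fgfr3 (-0.30), Fst (0.47), Jph2 (-0.085), Mef2a (-0.54), Mef2d (-0.31), Pfkl (0.15), Rspo2 (0.014), Scaf11 (0.096), Tbx3 (-0.79), Tfap2a (-0.29) and Wnt5a (-0.98). With the brightest probe set over the 3 arrays it turned for Fst (0.47) and Ryr1 (2.47), and with quantile normalization over those arrays for Fst (0.46) and Ryr1 (2.48). The mean of the probe sets turned Ryr1 (0.60), and unsuffixed probe sets turned Pfkl (0.15) and Tnnt2 (-0.48). The value of Tnnt2 there is from a probe set under the level at both stages. Its probe sets that reached the level were higher by 5.48 and 5.02.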
